A study of Homo sapiens with 9 samples.

Results

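The lipid droplet proteins and lipolysis regulators of a human hepatoma line were followed at the transcript level after loss of either of the genes needed to build apolipoprotein B (apoB)-containing lipoproteins. The set holds 10 of the 58735 genes in the deposited tables and was chosen by name for the known roles of its products. It comprises PLIN2, PLIN3, PLIN4, PLIN5, CIDEC, PNPLA2, ABHD5, G0S2, HILPDA and PNPLA3. The choice was made with earlier results of these data known. The cells were wild-type Huh-7 (Control), the APOB knock out clone Ako-3 and the MTTP knock out clone Mko-3, with 3 libraries labelled as biological replicates in each group. Huh-7 is an established human hepatoma line, and both knockouts were made in it with CRISPR/Cas9. Each knockout was represented by a single clone, so the effect of the lost gene and the properties of that clone cannot be told apart. All cells were grown near to confluence in medium with fetal bovine serum, washed, and kept overnight without serum before RNA was isolated. The same 3 Control libraries served both knockouts, and no label names a sequencing batch. The growth of Mko-3 is described in a label of its own, whereas 1 label covers Huh-7 and Ako-3, so a batch that separates Mko-3 from the other groups cannot be told apart from the clone in any Mko-3 difference below.

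Lipid droplets store triglyceride and cholesteryl ester in a core bounded by a phospholipid monolayer, and the perilipins (PLIN proteins) coat that surface and limit the access of lipases. Adipose triglyceride lipase, encoded by PNPLA2, removes the first fatty acid from triglyceride. It is activated by ABHD5 (CGI-58) and inhibited by G0S2 and HILPDA. In hepatocytes triglyceride can either remain in droplets or be loaded onto apoB by microsomal triglyceride transfer protein, the product of MTTP.

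The promoters of PLIN5, G0S2 and PLIN2 are shown because PLIN5 and G0S2 were the members past both thresholds used here and PLIN2 was the most abundant member. Each sequence holds the 250 bases before the RefSeq transcription start in GRCh38.p14, written 5′ to 3′ on the strand of the gene. Capitals mark matches on either strand to any of 6 motifs, namely the E-box CACGTG, the hypoxia response core ACGTG, the nuclear receptor core AGGTCA, the CCAAT box, the GC box GGGCGG and the TATA box TATAAA.
PLIN5, chr19:4535225-4535474, minus strand: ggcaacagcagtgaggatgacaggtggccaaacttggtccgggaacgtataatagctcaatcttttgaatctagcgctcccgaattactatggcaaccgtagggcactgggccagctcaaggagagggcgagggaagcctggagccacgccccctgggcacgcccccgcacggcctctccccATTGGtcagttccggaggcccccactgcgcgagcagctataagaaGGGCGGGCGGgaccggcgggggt
G0S2, chr1:209675162-209675411, plus strand: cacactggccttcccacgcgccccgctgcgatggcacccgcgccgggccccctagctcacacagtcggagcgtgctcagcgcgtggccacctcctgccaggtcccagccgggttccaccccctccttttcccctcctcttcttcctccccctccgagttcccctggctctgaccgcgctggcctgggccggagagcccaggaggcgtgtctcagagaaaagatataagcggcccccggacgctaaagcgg
PLIN2, chr9:19127493-19127742, minus strand: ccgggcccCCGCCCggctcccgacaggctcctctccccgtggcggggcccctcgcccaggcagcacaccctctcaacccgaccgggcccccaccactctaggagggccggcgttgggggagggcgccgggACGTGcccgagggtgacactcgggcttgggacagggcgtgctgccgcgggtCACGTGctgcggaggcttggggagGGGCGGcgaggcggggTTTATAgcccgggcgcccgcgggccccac

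The PLIN5 window had a CCAAT box on the opposite strand, 64 to 68 bases before the start, and 2 overlapping GC boxes between bases 14 and 23 before it. None of the 6 motifs occurred in the G0S2 window, although 69.2% of its bases were G or C. The PLIN2 window was 78.0% G or C, and had an E-box 64 to 69 bases before the start, which includes a hypoxia core on each strand. It had a further hypoxia core, 2 GC boxes and a TATA box read on the opposite strand. Among all 35116 RefSeq windows of this length, 6.34% held an E-box, 18.5% a hypoxia core, 12.1% the receptor core, 32.0% a CCAAT box, 42.6% a GC box and 10.7% a TATA box. Their median G and C content was 58.0%. An entry was matched for 8 of the 10 members, the others being PNPLA3 and HILPDA. PLIN3 and PLIN4 also had a CCAAT box on the opposite strand, starting 77 and 76 bases before their starts. Each match describes letters in the window, and binding was not measured.

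Total counts ranged from 14638727 to 20179760 per library. The targeted transcripts followed the labels. APOB, which encodes apoB, fell 2.57-fold in Ako-3 (adjusted p = 7.1e-05 by the quasi-likelihood test of edgeR, with p values adjusted by Benjamini-Hochberg), and MTTP fell 7.34-fold in Mko-3 (adjusted p = 9.4e-19). Mitochondrial transcripts took 7.06 to 7.40% of counts in Ako-3, 5.52 to 6.17% in Control and 5.75 to 5.82% in Mko-3. The summed FPKM (fragments per kilobase, scaled for library size) of 9 hepatocyte markers was 5130 to 5290 in Control, 6120 to 6410 in Ako-3 and 5030 to 5270 in Mko-3. Of 6 adipocyte markers, ADIPOQ, FABP4, LEP and CIDEA had at most 3 counts in each of the 9 libraries, and the summed FPKM of the list was 0.172 to 0.573. A leukocyte list of 5 genes summed to 150 to 163 FPKM in Control, 186 to 203 in Ako-3 and 188 to 202 in Mko-3. An endothelial and stellate list of 7 genes summed to 10.4 to 11.9, 14.5 to 15.4 and 7.78 to 8.44, and a biliary list of 4 genes to 120 to 128, 118 to 124 and 166 to 171. PTPRC, CD68, LRAT and KRT7 of these lists had 3 counts or fewer in every library. The part of these differences in the results below was not tested. In bulk RNA, fewer cells with a transcript and less of it per cell cannot be told apart.

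All 10 members were transcribed in all 9 libraries. On the per-length FPKM scale, PLIN2 was the most abundant member of the set in each group, with a level of 70.7 ± 1.65 (SD, n = 3) in Control, 73.8 ± 4.75 in Ako-3 and 87.7 ± 1.45 in Mko-3. In Control cells, 95.97% of the 12692 genes above 1 FPKM had a lower mean level. HILPDA followed in Control at 55.3 ± 4.58, then PLIN3 at 33.4 ± 2.06, PNPLA3 at 27.8 ± 0.554 and PNPLA2 at 22.0 ± 1.63. CIDEC at 8.83 ± 0.458, G0S2 at 6.36 ± 1.04, PLIN4 at 4.0 ± 0.709, ABHD5 at 2.46 ± 0.105 and PLIN5 at 1.54 ± 0.302 made up the lower end. No neighbours in this order overlapped in Control. CIDEC and G0S2, as well as PLIN4 and ABHD5, had overlapping ranges in Ako-3, and so did ABHD5 and PLIN4 in Mko-3. G0S2 stood at place 7 in Control and Ako-3 and at place 9 in Mko-3, whereas ABHD5 stood at place 9 in Control and Ako-3 and at place 7 in Mko-3. The inhibitor G0S2 thus ranked above the activator in Control and below it in Mko-3, while HILPDA, the other inhibitor, stood at place 2 in all 3 groups. The rank of G0S2 above ABHD5 rests on the annotated lengths, 866 and 7549 bases. Before division by length ABHD5 was higher in Control, at 270 to 360 raw counts against 72 to 122 for G0S2. PLIN5 was the lowest in all groups and its mean was under 1 FPKM in both knockouts, at 0.699 ± 0.0970 and 0.434 ± 0.115.

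**Figure D1:**
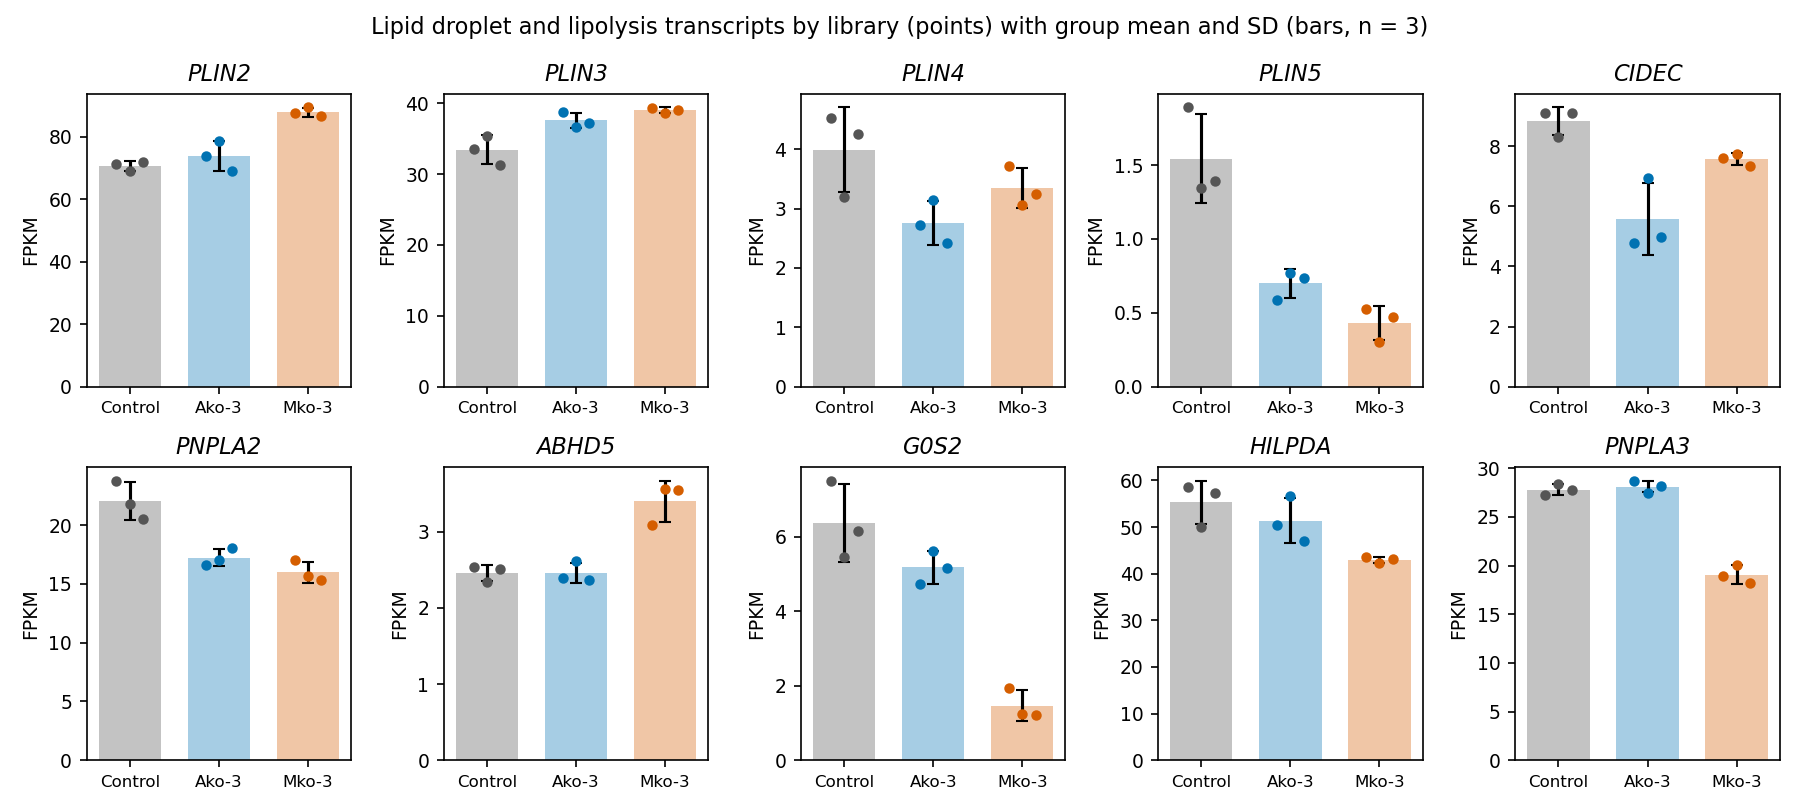
Level of each member in FPKM (vertical axes, starting at 0) in the Control, Ako-3 and Mko-3 libraries; points are libraries, bars the group mean and error bars the SD (n = 3). PLIN5 is lower in both knockouts, G0S2 is lower in Mko-3 alone among the groups (1.46 against 6.36 FPKM in Control), and PLIN2 is highest in Mko-3.

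Against Control, PLIN5 alone of the 10 passed both thresholds in Ako-3, where 8.52% of the 15787 genes tested did. The thresholds were a log2 fold change of 1 or more in size and an adjusted p of 0.05 or less. PLIN5 was lower, as were 5.00% of all genes past both, and no member was past both and higher, against 3.52% of all genes. In Mko-3, PLIN5 and G0S2 passed both, against 11.0% of 15745 genes, and both were lower, against 7.22% of all genes. No member was past both and higher, where 3.82% of all genes were. With the adjusted p alone, 5 members passed in Ako-3, against 49.9% of all genes, 1 of them higher and 4 lower, against 25.5% and 24.4%. In Mko-3 it was 8 members, against 54.0% of all genes, 3 higher and 5 lower, against 26.9% and 27.1%. The groups did not overlap for 4 members in Ako-3 and 9 in Mko-3, against 57.6% and 60.7% of all genes. The members' median log2 fold change was -0.21 in Ako-3 and -0.33 in Mko-3, beside -0.01 over all genes in each comparison. Compared directly with Ako-3, Mko-3 differed in 8 members by the adjusted p, against 41.6% of 15528 genes. Of these, 4 were higher and 4 lower, against 21.1% and 20.6%. By both thresholds it was 1 member (G0S2, lower), against 5.73% of genes in either direction, 3.47% lower and 2.26% higher. The groups were separate for 8 members in that comparison, against 49.8% of all genes. All 10 members passed the filter on low counts in the 3 comparisons, and the text below gives levels as CPM (counts scaled to a common library size by the trimmed mean of M values), in replicate order.

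PLIN2 (ENSG00000147872) encodes the perilipin that coats most droplets in hepatocytes, and its protein is stabilised by stored lipid. Its level was 361, 351 and 365 CPM in Control, 379, 411 and 356 in Ako-3, and 452, 463 and 443 in Mko-3. The Mko-3 libraries lay above all others, while Ako-3 overlapped Control. PLIN2 rose by 23.1% in Mko-3 (log2 fold change 0.30 ± 0.06 SE, adjusted p = 0.00013, edgeR's quasi-likelihood test). In Ako-3 the log2 fold change was 0.06 ± 0.06 (adjusted p = 0.45), and it was -0.04 when libraries were scaled by their totals alone. Mko-3 was also above Ako-3, by 18.2% (adjusted p = 7.3e-07).

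PLIN3 (ENSG00000105355), also called TIP47, is found on small nascent droplets and in the cytosol. It measured 94.3, 100.1 and 87.9 CPM in Control, 110.2, 106 and 106 in Ako-3, and 113, 111 and 111 in Mko-3, so that both knockouts lay above Control in every library. It rose by 12.1% in Ako-3 (log2 0.16 ± 0.07, adjusted p = 0.046 by edgeR) and by 15.7% in Mko-3 (log2 0.21 ± 0.07, adjusted p = 0.010). The call in Ako-3 was lost under 10 of 14 alternative settings, including without Control replicate 1 or 3 and without any single Ako-3 library, with log2 fold changes of 0.07 to 0.19. The call in Mko-3 was lost when libraries were scaled by totals (adjusted p = 0.067) or upper quartiles (adjusted p = 0.064). The clones did not differ detectably (log2 0.05 ± 0.05, adjusted p = 0.47).

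PLIN4 (ENSG00000167676) encodes a perilipin known best from adipocytes and muscle. Its level was 29.4, 20.8 and 27.6 CPM in Control, 17.9, 21.0 and 15.9 in Ako-3, and 24.5, 20.3 and 21.3 in Mko-3. Control replicate 2 fell within the range of both knockouts. PLIN4 fell by 31.3% in Ako-3 (log2 -0.54 ± 0.13, adjusted p = 0.0019 by edgeR). In Mko-3 the log2 fold change was -0.28 ± 0.12 (adjusted p = 0.056), which became -0.40 (adjusted p = 0.0012) without Control replicate 2 and -0.35 (adjusted p = 0.038) without Mko-3 replicate 1. It also passed with library totals (-0.34, adjusted p = 0.020), with upper quartiles (-0.345, adjusted p = 0.023) and with replicate number as a block (-0.26, adjusted p = 0.027). PLIN4 was 20.2% higher in Mko-3 than in Ako-3 (adjusted p = 0.019), a call lost without Ako-3 replicate 3 (adjusted p = 0.17), without Mko-3 replicate 1 (adjusted p = 0.19), with DESeq2 (adjusted p = 0.10) and in a fit of all 9 libraries (adjusted p = 0.11).

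PLIN5 (ENSG00000214456) codes for the perilipin that links droplets to mitochondria in tissues that oxidise much fatty acid, and that binds both ABHD5 and adipose triglyceride lipase. It measured 9.08, 6.51 and 6.68 CPM in Control, 2.87, 3.82 and 3.59 in Ako-3, and 2.57, 1.5 and 2.29 in Mko-3. These levels rest on 99 to 171, 47 to 74 and 26 to 45 raw counts. The 3 groups did not overlap, with Control highest and Mko-3 lowest. PLIN5 was 2.21-fold lower in Ako-3 (log2 -1.14 ± 0.19, adjusted p = 3.4e-05 by edgeR) and 3.60-fold lower in Mko-3 (log2 -1.85 ± 0.21, adjusted p = 3e-07). Without Control replicate 1, the highest library, the value in Ako-3 was -0.97 (adjusted p = 0.00036), just short of the fold threshold, so no member passed both thresholds. The value in Mko-3 stayed between -2.01 and -1.63 over 14 alternatives and was past both thresholds in each. The difference between the clones was -0.70 ± 0.23 (adjusted p = 0.010). It was not past the adjusted p with DESeq2 (adjusted p = 0.077), without Ako-3 replicate 2 (-0.62, adjusted p = 0.059) or without Mko-3 replicate 2 (-0.50, adjusted p = 0.11).

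CIDEC (ENSG00000187288), known as FSP27 in the mouse, encodes a protein of droplet contact sites through which smaller droplets pass lipid to larger ones. Levels of 17.5, 16.0 and 17.5 CPM were measured in Control, 9.33, 13.8 and 9.68 in Ako-3, and 14.9, 15.2 and 14.3 in Mko-3. All 6 knockout libraries were below Control, and Ako-3 was below Mko-3. CIDEC fell by 36.8% in Ako-3 (log2 -0.66 ± 0.13, adjusted p = 0.00036 by edgeR). In Mko-3 the log2 fold change was -0.24 ± 0.10 (adjusted p = 0.062), and it passed without Control replicate 2 (-0.27, adjusted p = 0.043) and with totals (-0.30, adjusted p = 0.019), upper quartiles (-0.30, adjusted p = 0.020) or a minimum of 10 counts in every library (-0.25, adjusted p = 0.049). Mko-3 was 34.3% above Ako-3 (log2 0.42 ± 0.12, adjusted p = 0.0026).

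PNPLA2 (ENSG00000177666), the gene of adipose triglyceride lipase, measured 91.1, 84.0 and 78.7 CPM in Control, 64.6, 67.3 and 70.2 in Ako-3, and 66.4, 61.4 and 59.4 in Mko-3. Every knockout library was below every Control library. It fell by 21.9% in Ako-3 (log2 -0.36 ± 0.07, adjusted p = 0.00038 by edgeR) and by 27.9% in Mko-3 (log2 -0.47 ± 0.07, adjusted p = 1.6e-05). The clones overlapped, and their difference of -0.11 ± 0.06 did not pass the test (adjusted p = 0.11).

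ABHD5 (ENSG00000011198), which encodes the activator of this lipase, was at 19.1, 17.8 and 18.9 CPM in Control, 18.2, 20.3 and 18.1 in Ako-3, and 23.7, 27.4 and 27.0 in Mko-3. Control and Ako-3 overlapped and Mko-3 lay above both. ABHD5 rose by 36.7% in Mko-3 over Control (log2 0.45 ± 0.10, adjusted p = 0.00052 by edgeR) and by 37.4% over Ako-3 (log2 0.46 ± 0.09, adjusted p = 1.1e-05). The value in Ako-3 was -0.01 ± 0.10 (adjusted p = 0.96), and its sign changed under 7 of 14 alternatives.

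G0S2 (ENSG00000123689) encodes a small inhibitor that binds the catalytic domain of the lipase. Its level was 6.48, 4.73 and 5.31 CPM in Control, 4.15, 5.00 and 4.52 in Ako-3, and 1.71, 1.09 and 1.05 in Mko-3, from 72 to 122, 68 to 97 and 16 to 30 raw counts. Mko-3 was below every other library, while Ako-3 and Control overlapped. G0S2 was 4.36-fold lower in Mko-3 than in Control (log2 -2.13 ± 0.24, adjusted p = 2.1e-07 by edgeR) and 3.53-fold lower than in Ako-3 (log2 -1.82 ± 0.24, adjusted p = 1.1e-09). Both differences were past both thresholds under all 14 alternatives, with ranges of -2.39 to -1.99 and -2.09 to -1.70. The log2 fold change in Ako-3 was -0.31 ± 0.18 (adjusted p = 0.16).

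HILPDA (ENSG00000135245), a hypoxia-inducible droplet protein that also inhibits the lipase, measured 121, 104 and 118 CPM in Control, 106, 120 and 98.5 in Ako-3, and 91.5, 89.1 and 90.0 in Mko-3. The Mko-3 libraries were the lowest. HILPDA fell by 23.1% in Mko-3 against Control (log2 -0.38 ± 0.07, adjusted p = 0.0001 by edgeR) and by 16.9% against Ako-3 (log2 -0.27 ± 0.05, adjusted p = 3.1e-05). In Ako-3 the value was -0.11 ± 0.08 (adjusted p = 0.25). It passed without Control replicate 2 (-0.18, adjusted p = 0.039) and when libraries were scaled by totals (-0.21, adjusted p = 0.035).

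PNPLA3 (ENSG00000100344) encodes adiponutrin, a droplet protein related to adipose triglyceride lipase and able to bind ABHD5. It was at 87.9, 92.0 and 89.7 CPM in Control, 93.6, 91.4 and 92.0 in Ako-3, and 62.1, 66.2 and 59.2 in Mko-3. Control and Ako-3 libraries overlapped, whereas Mko-3 was well below them. PNPLA3 fell by 32.0% in Mko-3 (log2 -0.56 ± 0.07, adjusted p = 7.2e-07 by edgeR), and against Ako-3 it fell by 32.5% (log2 -0.57 ± 0.06, adjusted p = 3.2e-14). In Ako-3 the log2 fold change was 0.01 ± 0.06 (adjusted p = 0.90), and it was -0.08 with totals, -0.04 with upper quartiles and -0.01 without Control replicate 1.

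**Figure D2:**
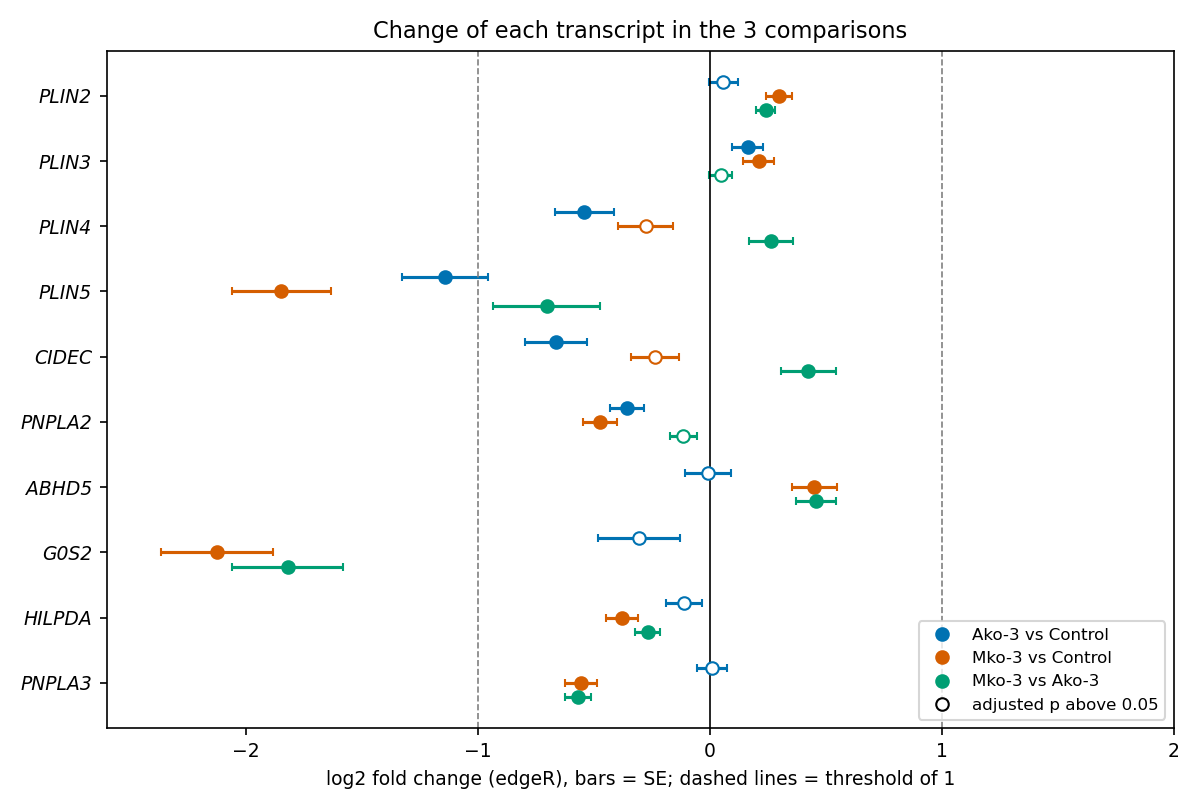
Log2 fold change of each member (horizontal axis) in Ako-3 against Control, Mko-3 against Control and Mko-3 against Ako-3, with the SE as bars; open circles have an adjusted p above 0.05 and dashed lines mark the threshold of 1. PLIN5 is beyond the threshold in both knockouts (-1.14 and -1.85), and G0S2 in Mko-3 against both other groups (-2.13 and -1.82).

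The perilipins were then set against each other as shares of their summed FPKM. PLIN2 made up 64.0, 63.3 and 66.1% of PLIN2 to PLIN5 in Control, 63.7, 66.0 and 63.1% in Ako-3 and 66.7, 68.0 and 66.9% in Mko-3. PLIN3 supplied most of the remainder, at 30.5 ± 1.93% (SD, n = 3), 32.8 ± 1.74% and 29.9 ± 0.436%. The share of PLIN5 was 1.40 ± 0.256% in Control, 0.610 ± 0.0886% in Ako-3 and 0.333 ± 0.0887% in Mko-3, and that of PLIN4 was 3.64 ± 0.617%, 2.40 ± 0.218% and 2.56 ± 0.255%. These shares are descriptions of transcripts and carry no test.

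Ratios to PNPLA2 within a library, taken from FPKM, relate each regulator to its lipase and do not depend on the scaling between libraries. With 3 libraries against 3, the exact two-sided permutation test cannot give a p below 0.1, which is 0.164 after adjustment over the 18 ratio tests made, so non-overlap is given as a description. The activator ratio ABHD5 to PNPLA2 was 0.107, 0.108 and 0.122 in Control, 0.144, 0.153 and 0.131 in Ako-3, and 0.182, 0.227 and 0.232 in Mko-3. None of these groups overlapped, and the ratio was 1.27-fold and 1.90-fold the Control value in Ako-3 and Mko-3. The inhibitor ratio G0S2 to PNPLA2 was 0.316, 0.250 and 0.299 in Control, 0.285, 0.330 and 0.286 in Ako-3, and 0.114, 0.0790 and 0.0783 in Mko-3. Mko-3 was thus 3.22-fold below Control, and Ako-3 overlapped Control at 1.04-fold.

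HILPDA to PNPLA2 was 2.52 ± 0.251 (SD, n = 3) in Control, 2.99 ± 0.360 in Ako-3 and 2.69 ± 0.128 in Mko-3, with all groups overlapping. The lower level of HILPDA in Mko-3 was thus not seen in its ratio to the lipase. PLIN2 to PNPLA2 was 3.22 ± 0.260, 4.29 ± 0.412 and 5.49 ± 0.309, and no group overlapped another. PNPLA3 to PNPLA2 was 1.27 ± 0.108 in Control and 1.63 ± 0.0842 in Ako-3, which did not overlap, and 1.19 ± 0.0857 in Mko-3, which overlapped Control. The ratio of PLIN2 to PLIN3 was 2.12 ± 0.178, 1.97 ± 0.155 and 2.25 ± 0.0566, and both knockouts overlapped Control.

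**Figure D3:**
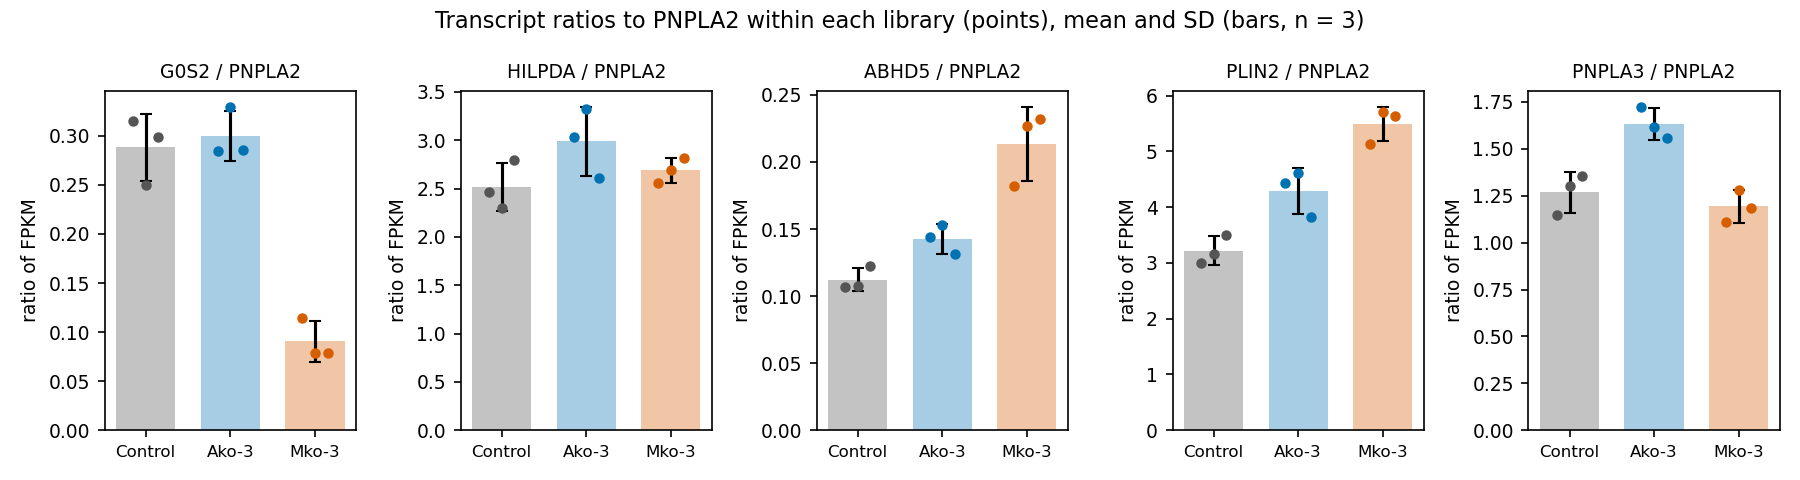
Ratio of the FPKM of 5 members to that of PNPLA2 (vertical axes, starting at 0) in each library (points), with the group mean (bars) and SD (error bars, n = 3). ABHD5 and PLIN2 stand in the order Control, Ako-3, Mko-3 without overlap, and G0S2 is low in Mko-3 alone (0.0905 against 0.288 in Control).

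PLIN5, PLIN4 and PLIN3 lie on the minus strand of chromosome 19, at 4522531 to 4535224, 4502180 to 4518465 and 4838341 to 4867768 of hg38 in the deposited annotation. PLIN4 and PLIN5 are separated by 4065 bases, and PLIN5 and PLIN3 by 303116. PLIN3 rose in both knockouts, whereas the log2 fold changes of PLIN4 and PLIN5 were negative in both. Within 100 kb of PLIN5, 7 other genes were tested, and SEMA6B, CHAF1A and AC011498.7 passed both thresholds in Ako-3 and in Mko-3. The log2 fold changes of the 7 ranged from -1.45 to 1.47 in Ako-3 and from -1.03 to 1.61 in Mko-3. Of the exonic bases of PLIN5, 21.7% are shared with AC011498.4 on the same strand, which had 1 to 13 counts, so reads from the shared bases cannot be told apart. G0S2 occupies 209675420 to 209676388 on the plus strand of chromosome 1, and its only neighbour within 100 kb tested in Mko-3 had a log2 fold change of 0.10. Libraries of the kind described do not mark strand. Exons of PNPLA3 overlap SAMM50 over 4.64% of their bases and exons of ABHD5 overlap ANO10 over 2.26%. Overlaps with genes of at most 5 counts were larger, at 18.3% of PLIN3 (AC027319.1) and 10.5% of PNPLA2 (AP006621.1). For HILPDA they were 8.99% (AC010655.2) and 8.45% (AC010655.4). The effect of these overlaps on levels, shares and ratios between members was not tested.

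Genes whose profile over the 9 libraries was most like that of a member were sought among 11228 genes with a mean of at least 5 CPM. These correlations describe 9 libraries in 3 groups that share their differences, and carry no test. For PLIN5 the closest were GRTP1 (Pearson r = 0.996), SOCS3 (r = 0.990) and KLF4 (r = 0.987). KLF4, a transcription factor, averaged 15.1 CPM in Control, 5.83 in Ako-3 and 2.89 in Mko-3. For G0S2 they were TRAPPC6A (r = 0.996), ASGR1 (r = 0.994) and SLC25A42 (r = 0.993). ASGR1, a subunit of the hepatocyte asialoglycoprotein receptor, averaged 193, 165 and 90.9 CPM. For PLIN2 they were ISCA1 (r = 0.991), YWHAZ (r = 0.981) and CD24 (r = 0.977), the last at 475, 535 and 673 CPM.

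Other genes of droplet biology were read from 6 lists of 142 genes in all. For the list counts below, 25.5% of all genes tested were higher and 24.4% lower by adjusted p in Ako-3, and 26.9% and 27.1% in Mko-3. Of 26 further genes of the droplet coat and of droplet formation, 22 were tested in each knockout. By adjusted p, 8 were higher and 8 lower in Ako-3, and 10 higher and 7 lower in Mko-3, with a median log2 fold change of 0.05 in both, near the all-gene medians. TMT1A (METTL7A in the files), which encodes a methyltransferase-like droplet protein, fell in Mko-3 from 170 ± 17.3 to 86.5 ± 6.58 CPM (log2 -1.01 ± 0.08, adjusted p = 1.3e-09 by edgeR). LDAF1 (TMEM159 in the files), whose product marks sites of droplet formation with seipin, fell in Mko-3 as well (log2 -1.30 ± 0.20, adjusted p = 1.5e-05). LDAF1 was also lower in Ako-3 (log2 -0.58 ± 0.17, adjusted p = 0.0084 by edgeR). PLIN1, the adipocyte perilipin, was sparse, at 17 to 26 counts in Control and 6 to 9 in Mko-3 (log2 -1.51 ± 0.40, adjusted p = 0.0032). HSD17B13 was at 11 to 23 counts in Control, 1 to 6 in Ako-3 and 4 to 11 in Mko-3. BSCL2, the seipin gene, was at 8 to 14, 17 to 29 and 17 to 23. Of the exonic bases of BSCL2, 20.5% are shared with a readthrough gene on the same strand, which had 0 to 3 counts, so the counts of BSCL2 are uncertain.

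Of 23 other neutral lipid hydrolases 18 were tested, and 5 were higher and 6 lower in Ako-3, and 5 higher and 5 lower in Mko-3, with a median log2 fold change of -0.06 in both. AADAC, an endoplasmic reticulum esterase of hepatocytes, rose from 57.4 ± 2.96 CPM in Control to 135 ± 8.40 in Ako-3 (log2 1.20 ± 0.07, adjusted p = 2.7e-11 by edgeR) and 130 ± 1.77 in Mko-3 (log2 1.15 ± 0.07, adjusted p = 1.2e-11). CES3, a carboxylesterase, rose in Ako-3 (log2 1.81 ± 0.14, adjusted p = 2e-09) and, by less, in Mko-3 (log2 0.64 ± 0.17, adjusted p = 0.0025 by edgeR). It was lower in Mko-3 than in Ako-3 (log2 -1.17 ± 0.13, adjusted p = 1.1e-12). PNPLA7, a lysophospholipase of the same family as PNPLA2, fell in Mko-3 (log2 -1.47 ± 0.25, adjusted p = 3.6e-05).

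The list of lipolysis signalling, which holds catecholamine and insulin signalling genes with the exporters of lipolysis products, had 17 of 23 genes tested. In each knockout 3 were higher and 10 lower by the adjusted p, and the median log2 fold change was -0.38 in Ako-3 and -0.28 in Mko-3. Genes of both kinds of signal were among the lower ones, so these values give no direction for lipolysis, which was not measured. Of all genes, 25.5% were higher and 24.4% lower in Ako-3, and 26.9% and 27.1% in Mko-3. IRS2, an insulin receptor substrate, fell in Mko-3 from 55.2 ± 1.27 to 26.6 ± 2.53 CPM (log2 -1.09 ± 0.08, adjusted p = 9.1e-10 by edgeR). AQP7, a glycerol channel, also fell there (log2 -1.51 ± 0.17, adjusted p = 5.1e-07), and so did the beta-adrenergic receptor gene ADRB1, from 34 to 59 counts in Control to 15 to 24 (log2 -1.20 ± 0.28, adjusted p = 0.0009). The same genes were lower in Ako-3, short of the fold threshold. The log2 fold changes there were -0.76 ± 0.08 for IRS2 (adjusted p = 9.6e-08 by edgeR), -0.94 ± 0.16 for AQP7 (adjusted p = 4.9e-05) and -0.93 ± 0.27 for ADRB1 (adjusted p = 0.0063).

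Targets of PPARA, the fatty acid receptor that is known to act on PLIN2 and PLIN5, moved in both directions. In Ako-3, 8 of 23 tested were higher and 5 lower, and in Mko-3, 5 of 22 were higher and 8 lower, with medians of -0.01 and -0.11. PDK4, an inhibitor of pyruvate dehydrogenase, fell in Ako-3 (log2 -1.09 ± 0.21, adjusted p = 0.00018 by edgeR). It also fell in Mko-3, short of the fold threshold (log2 -0.79 ± 0.20, adjusted p = 0.0023). TXNIP fell in Mko-3 (log2 -1.23 ± 0.07, adjusted p = 4.8e-12) and, short of that threshold, in Ako-3 (log2 -0.91 ± 0.07, adjusted p = 8.6e-10). FGF21 was sparse, at 15 to 25 counts in Control, 1 to 6 in Ako-3 and 0 to 2 in Mko-3.

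Hypoxia-inducible factor targets, the group to which HILPDA belongs, had 9 higher and 9 lower of 24 tested in Ako-3, and 12 higher and 6 lower of 25 in Mko-3, with medians of 0.09 and 0.10. PFKFB3, a regulator of glycolysis, rose from 65.1 ± 0.676 CPM to 191 ± 8.27 in Ako-3 (log2 1.52 ± 0.06, adjusted p = 3e-13 by edgeR) and to 262 ± 5.60 in Mko-3 (log2 1.97 ± 0.06, adjusted p = 2.8e-16). In Mko-3 the glucose transporter gene SLC2A1 rose (log2 1.17 ± 0.08, adjusted p = 1.3e-10), and the carbonic anhydrase gene CA9 rose from 1 to 11 counts to 41 to 65 (log2 3.00 ± 0.42, adjusted p = 3.9e-06). SLC2A1 was also higher in Ako-3 (log2 0.68 ± 0.09, adjusted p = 2.1e-06 by edgeR). HILPDA fell in Mko-3, as did 6 of the 25. Of those, ANKRD37, chosen after its values were seen, was past both thresholds (log2 -1.18 ± 0.24, adjusted p = 0.00029). It was also past both in Ako-3 (log2 -1.23 ± 0.25, adjusted p = 0.00031 by edgeR). In Ako-3 EGLN3, an oxygen-sensing prolyl hydroxylase, rose (log2 1.11 ± 0.10, adjusted p = 3e-08) and the enolase gene ENO2 fell (log2 -1.56 ± 0.16, adjusted p = 2.5e-07). EGLN3 was also higher in Mko-3 (log2 0.94 ± 0.10, adjusted p = 1.3e-07 by edgeR), where ENO2 did not pass the test (log2 0.10 ± 0.12, adjusted p = 0.51).

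All 20 transcription factors known to act on members were tested, and 5 were higher and 8 lower in Ako-3, and 3 higher and 12 lower in Mko-3, with medians of -0.17 and -0.24. The shares of all genes were 25.5% higher and 24.4% lower in Ako-3, and 26.9% and 27.1% in Mko-3. MLXIPL (ChREBP), the carbohydrate-responsive factor that is known to act on PNPLA3 and G0S2, was at 63.8 ± 5.46 CPM in Control, 41.9 ± 2.58 in Ako-3 and 14.9 ± 2.18 in Mko-3. It fell by 2.13 on the log2 scale in Mko-3 (SE 0.10, adjusted p = 7.3e-13 by edgeR), with a difference of -1.49 ± 0.09 from Ako-3 (adjusted p = 1.7e-25). MLXIPL also fell in Ako-3 (log2 -0.64 ± 0.08, adjusted p = 1.9e-06 by edgeR), where neither PNPLA3 nor G0S2 passed the adjusted p. A link between MLXIPL and these members was not tested. CEBPB fell in Mko-3 from 460.4 ± 45.2 to 193 ± 3.12 CPM (log2 -1.29 ± 0.07, adjusted p = 2.6e-12). In Ako-3 CEBPB fell to 279 ± 8.60 CPM (log2 -0.75 ± 0.07, adjusted p = 1.6e-08 by edgeR). PPARGC1A, a coactivator of oxidative genes, was at 27 to 48 counts in Control, 12 to 14 in Ako-3 (log2 -1.44 ± 0.33, adjusted p = 0.0011) and 1 to 6 in Mko-3 (log2 -3.08 ± 0.45, adjusted p = 6e-06). PPARA itself fell in Mko-3 (log2 -0.62 ± 0.08, adjusted p = 1e-06), and in Ako-3 its value was -0.20 ± 0.08 (adjusted p = 0.055). HIF1A, chosen with PPARA after its values were seen, was lower in Ako-3 (log2 -0.88 ± 0.07, adjusted p = 4.1e-09) and in Mko-3 (log2 -0.47 ± 0.07, adjusted p = 2.8e-06). HNF4A and CEBPA, picked in the same way, were higher in Ako-3 (log2 0.70 ± 0.06, adjusted p = 3.4e-09, and 0.48 ± 0.07, adjusted p = 9.4e-06, by edgeR). In Mko-3, HNF4A was higher (log2 0.30 ± 0.06, adjusted p = 0.00011) and CEBPA did not pass (log2 -0.08 ± 0.07, adjusted p = 0.34).

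Between the clones, 7 higher and 7 lower in Mko-3 were counted by adjusted p among 21 coat and formation genes tested, 3 and 4 among 18 hydrolases, and 4 and 7 among 17 signalling genes. The counts were 3 and 13 among 22 PPARA targets (median log2 difference -0.16), 10 and 5 among 25 hypoxia-inducible factor targets (0.08) and 2 and 12 among 20 transcription factors (-0.24). Among all genes tested between the clones, 21.1% were higher and 20.6% lower in Mko-3 by adjusted p. TMT1A fell in this comparison (log2 -1.16 ± 0.05, adjusted p = 9.1e-33 by edgeR), as did PNPLA7 (log2 -1.18 ± 0.24, adjusted p = 2.8e-05). The hypoxia targets CA12 (log2 1.13 ± 0.06, adjusted p = 5.4e-28), ENO2 (log2 1.66 ± 0.11, adjusted p = 2.8e-21) and CA9 (log2 3.35 ± 0.37, adjusted p = 4.4e-12) were higher in Mko-3. CYP8B1, a bile acid hydroxylase, was at 8 to 19 counts in Ako-3 and 2 to 9 in Mko-3 (adjusted p = 0.042).

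**Figure D4:**
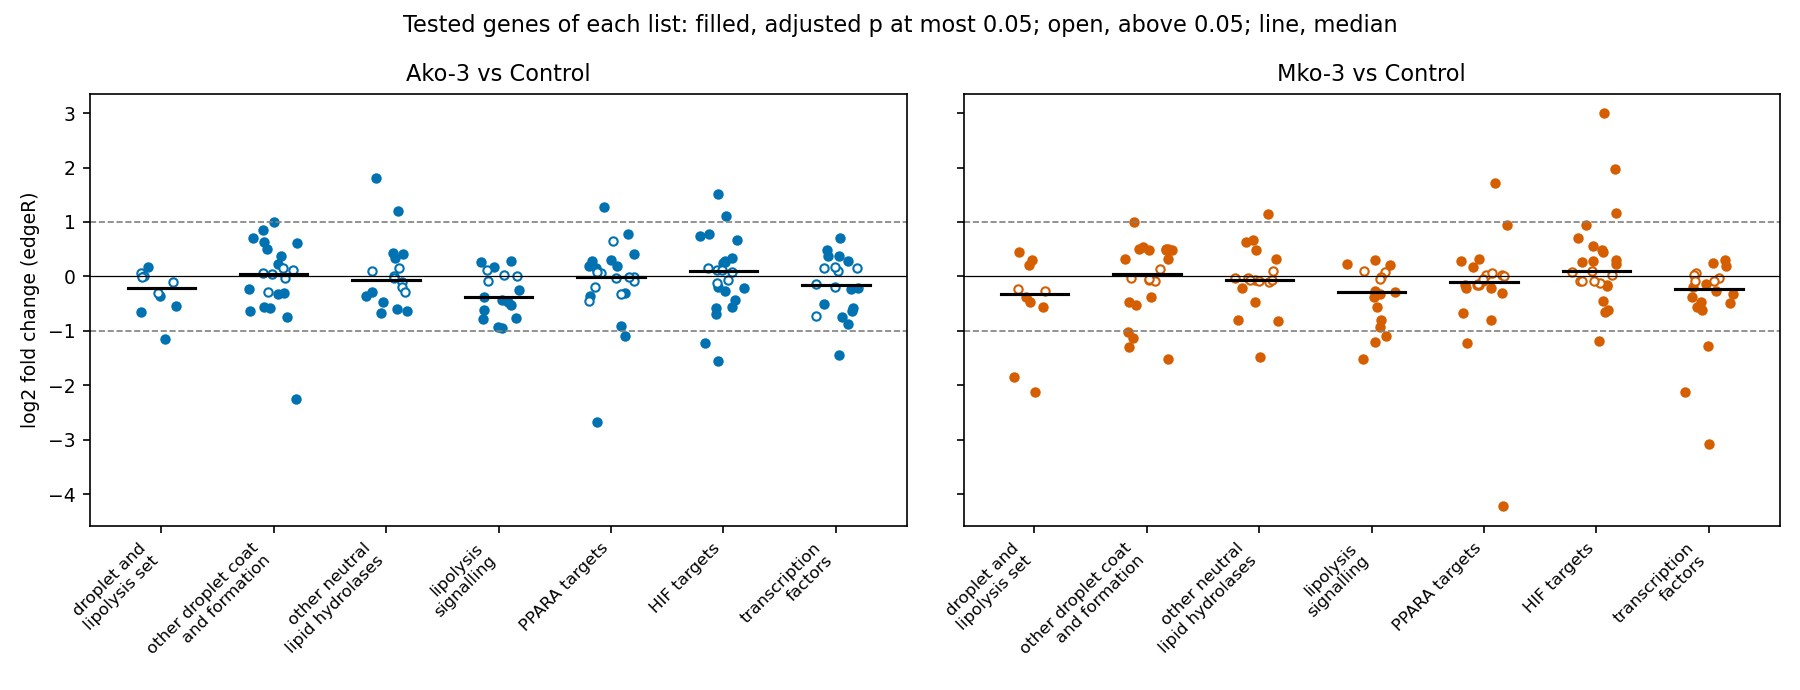
Log2 fold change (vertical axis) of the tested genes of the member set and of the 6 lists in Ako-3 (left) and Mko-3 (right) against Control; each point is a gene, filled where the adjusted p was at most 0.05, and black lines are medians. Points lie on both sides of 0 in every list, with the lowest medians in Ako-3 for lipolysis signalling (-0.38) and in Mko-3 for the member set (-0.33). The lowest point in each panel is FGF21, from a few counts in the knockout (1 to 6 and 0 to 2), whose plotted value in Mko-3 depends on how the fit treats counts of 0.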

How the data were processed

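RNA-seq of 9 libraries was used, 3 each of Control, Ako-3 and Mko-3 cells. The authors aligned paired reads to hg38 with HISAT2 2.0.5 and counted them on genes with featureCounts 1.5.0-p3, and deposited raw counts without normalization. The deposited FPKM are, per the values, these counts divided by gene length and by library sizes that match DESeq2 size factors over the 9 libraries. The libraries were made from poly-T selected mRNA without a strand mark. Members and lists were chosen with earlier results of these data known, and 3 list symbols were matched by older names.

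Counts were tested with edgeR 4.0.16 in R 4.3.3 (TMM scaling, genes filtered by filterByExpr with its minimum count at 10, and the quasi-likelihood F test with robust dispersions), with each comparison fitted on its 6 libraries and p values adjusted by the Benjamini-Hochberg method over all genes tested. Both thresholds together mean a log2 fold change of 1 or more in size and an adjusted p of 0.05 or less. CPM were scaled by TMM over all 9 libraries. SE is the size of the log2 fold change divided by the square root of F. Ratios came from FPKM, with exact permutation tests in scipy 1.17.1. Groups at no more than 3 counts in every library were given no fold change. From each list, up to 3 genes past both thresholds with the smallest adjusted p were named in each comparison. A gene that this rule picks is not reported here. Alternatives were 3 other scalings, DESeq2 1.42.0, 2 other filters, 1 fit of all 9 libraries, a replicate block and each library left out. The edgeR fit of each knockout against Control was tested on simulated counts with known changes. The edgeR p values rest on the spread between libraries within groups, with the dispersion of each gene drawn towards that of other genes. No p value measures the spread between clones of 1 knockout.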

Additional observations from a re-analysis of the deposited data

Results flagged for a closer look

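For 8 members the change in Mko-3 differed from the change in Ako-3 in the direct edgeR test of the clones, which 41.6% of all genes also passed. The change in Mko-3 minus that in Ako-3 on the log2 scale was 0.24 for PLIN2, 0.27 for PLIN4, -0.70 for PLIN5, 0.42 for CIDEC, -1.82 for G0S2, -0.57 for PNPLA3, -0.27 for HILPDA and 0.46 for ABHD5. The calls for PLIN4 and PLIN5 were lost under 4 and 3 of 14 alternatives. Whether the differences come from the lost gene or from the clone cannot be told apart.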

How the results depend on the processing

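Over 14 alternatives per comparison, the number of members past both thresholds was 2 in Mko-3 and 1 between the clones under each of them. In Ako-3 it was 1 under 13, and 0 to 1 when a library was left out, with 0 without Control replicate 1, where PLIN5 was at -0.97. By adjusted p alone the number was 4 to 6 in Ako-3, 8 to 10 in Mko-3 and 6 to 8 between the clones. Of the members' log2 fold changes, 379 values kept direction and side of the threshold, 19 lost and 11 gained the call, and 11 changed sign, all 11 in Ako-3 and near 0. Those were PLIN2 with library totals (-0.0354), PNPLA3 with library totals (-0.0832), with upper quartiles (-0.0387) and without Control replicate 1 (-0.005179), and ABHD5 with DESeq2 (0.001407), with no filter (0.015), in 1 fit of 9 libraries (0.0005241) and in 4 of 6 fits with a library left out (up to 0.0234). Over all 6 such fits PNPLA3 ranged from -0.005179 to 0.0329 and ABHD5 from -0.0494 to 0.0234. The cause was not tested. None of the 126 ratio values moved beyond the spread, but this outcome was fixed in advance. Leaving out a library moves the mean of its group by less than the spread used as the limit. Gene length cancels when a ratio is compared between groups. Of the list counts, 61 moved by over 1.5 times and 947 did not.

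Over all genes, requiring 10 counts in every library left 841, 1113 and 511 calls against 1345, 1739 and 890, with fewer genes tested. Library totals lowered the share of higher genes among calls from 41.3 to 30.8% in Ako-3, and shifted the median of all genes by at most 0.09.

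Deviations from the group means had correlations of -0.12 to 0.09 in the 9 same-numbered pairs, so no pairing by replicate number was seen over the filtered genes together. Pairing that affects only some genes was not tested. With replicate number as a block, 1, 2 and 1 members passed both thresholds in Ako-3, Mko-3 and between the clones, and 4, 9 and 8 the adjusted p alone. PLIN5 was then at -1.13 and -1.85 and G0S2 at -2.13 in Mko-3. Depth limits PLIN5 and G0S2 most, at 16 to 45 counts in Mko-3.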
